A study of Mus musculus with 6 samples.

Results

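The CCN genes encode secreted, cysteine-rich proteins of the extracellular matrix. The genes described here are Ccn1 (older name Cyr61), Ccn2 (Ctgf), Ccn3 (Nov), Ccn4 (Wisp1) and Ccn5 (Wisp2), which were found in the count table by their Ensembl identifiers and symbols. They are 5 of the 54752 genes listed. Total RNA depleted of rRNA was sequenced from NIH/3T3, an established line of mouse embryonic fibroblasts. There were 3 groups with 2 replicates each, all kept in complete DMEM for 72 h: vehicle, which the labels give as PBS, a group given 1 ng/ml TGF-β1 plus DMSO as the solvent control, and a group given 1 ng/ml TGF-β1 plus 5 μM BI6727. BI6727 (volasertib) is an inhibitor of the mitotic kinase PLK1. The sources differ on whether vehicle held DMSO: the labels name PBS and the methods medium alone, while another passage of the paper names DMSO as the control. If vehicle had none, TGF-β1 and DMSO cannot be told apart in a comparison with vehicle. The series holds no group with BI6727 but without TGF-β1. The labels do not say that replicates came from separate cultures, so the p-values measure only the spread between these libraries.

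CCN proteins are called matricellular because they bind growth factors, integrins, heparan sulfate proteoglycans and other matrix proteins without forming the fibres of the matrix themselves. They are built from an insulin-like growth factor binding module, a von Willebrand factor type C module, a thrombospondin type 1 module and a C-terminal cystine knot, which Ccn5 lacks. In fibroblasts, Ccn2 is a long-known response gene of TGF-β and a marker of fibrosis, Ccn1 responds to serum and to the YAP and TEAD regulators, Ccn4 was described as a gene induced by Wnt1, and Ccn3 and Ccn5 have often been described as opposing growth or the matrix effects of Ccn2.

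The positions below are those of the mm10 mouse genome. Ccn1 lies on the minus strand at chr3:145646976-145649981, and Ccn2 on the plus strand at chr10:24595442-24598683. Ccn3 and Ccn4 share a chromosome, at chr15:54745702-54754039 and chr15:66891320-66923201, both on the plus strand, and Ccn5 lies on the plus strand at chr2:163820861-163833146. In the longest coding transcript of each gene, Ccn1 to Ccn4 have 5 coding exons and encode 379, 348, 354 and 367 amino acids. Ccn5 has 4 coding exons and encodes 251 amino acids. A sixth gene, Ccn6, is on the minus strand of chr10:39150970-39163794 and had 0 counts in all 6 libraries. The floor was set at 3 counts in each, or 0.124 to 0.167 CPM, counts scaled to a common library size as given below. The exact 95% Poisson interval of 0 counts reaches 3.69 counts. Tube1, with 183 to 296 counts, overlaps 34.0% of the exonic length of Ccn6 on the opposite strand, and how reads there were counted is not stated.

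Since the reads were 50 bases long, the most alike stretches of 50 coding bases show how far reads of one CCN gene could be taken for another. Among the 10 pairs of genes, the closest stretch was shared by Ccn2 (chr10:24596800-24596849) and Ccn3 (chr15:54749218-54749267), both on the plus strand. It lies in coding exon 4 of each, within the thrombospondin type 1 module, and 43 bases were the same and 7 differed. The stretch next in likeness was shared by Ccn1 (chr3:145648276-145648325, minus strand) and Ccn2 (chr10:24596815-24596864, plus strand), also in coding exon 4, and differed at 8 bases. The sequences are shown 5′ to 3′ with the differing bases of each pair in capitals.
Ccn2 against Ccn3, Ccn2: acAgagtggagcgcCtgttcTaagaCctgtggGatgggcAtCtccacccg
Ccn2 against Ccn3, Ccn3: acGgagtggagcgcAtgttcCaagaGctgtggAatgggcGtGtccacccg
Ccn1 against Ccn2, Ccn1: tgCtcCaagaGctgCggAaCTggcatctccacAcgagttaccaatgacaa
Ccn1 against Ccn2, Ccn2: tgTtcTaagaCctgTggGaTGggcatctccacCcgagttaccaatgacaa
The other 8 pairs differed at 10 to 13 of 50 bases in their closest stretch. None of the pairs thus held an identical run of read length in the coding sequence. The count of Ccn2 has another uncertainty: 23.2% of its exonic length is overlapped on the opposite strand by Gm15270, and the sources used here do not state whether strand was used in counting. Gm15270 itself had 6 to 13 counts in a library, against 595 to 8704 for Ccn2. These counts do not show how many reads of Ccn2 were affected, since the handling of reads that lie on both genes is not stated either. Levels per length given below use the full length of Ccn2 and carry this uncertainty too.

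For the promoter, RefSeq's table for GRCm38.p6 gave a window for Ccn1 among the members. The 250 bases before its start, at chr3:145649986-145650235 on the minus strand, are shown because Ccn1 was the 1 member matched in that table. Capitals mark the single match to the TEAD motif GGAATG, which lies on the strand opposite to the gene and therefore reads in reverse complement, between bases -103 and -98 before the start.
Ccn1 promoter: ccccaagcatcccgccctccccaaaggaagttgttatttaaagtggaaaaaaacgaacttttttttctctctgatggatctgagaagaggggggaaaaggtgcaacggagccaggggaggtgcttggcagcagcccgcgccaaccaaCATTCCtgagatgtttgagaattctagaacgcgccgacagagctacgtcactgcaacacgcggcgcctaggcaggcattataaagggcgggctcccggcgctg
Of 32851 promoter windows of the same length, 12.6% hold the TEAD motif on either strand. The window held no match on either strand to the SMAD motif CAGAC, which 42.2% of windows hold, to the SMAD palindrome GTCTAGAC (0.167%), to the AP-1 motif TGANTCA (6.75%), to the CArG box of SRF (1.47%) or to the TCF/LEF motif CTTTGAT (3.21%). A match is a description of letters and not of binding.

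Libraries held 18362378 to 24452153 counts on genes, of which 9518 genes reached at least 10 CPM in more than 3 samples and were tested. Fibroblast markers were high, with 8 of 10 past that filter and a summed level of 7144 to 7351 normalized CPM in vehicle, 6873 to 7871 with TGF-β1 and DMSO and 6162 to 6222 with BI6727. Vim alone gave 4014 to 5126 CPM. Of these markers, Pdgfra was called lower with TGF-β1 and DMSO than in vehicle by the rule below, and Pdgfra and Thy1 were among the 3 called lower with TGF-β1 and BI6727. All 5 epithelial markers were under 1 CPM in every library, the endothelial markers Kdr, Tie1 and Emcn and the leukocyte markers Adgre1 and Cd3e were at 0, and the leukocyte list summed to 2.94 to 4.69 CPM. The endothelial list summed to 0.208 to 0.728 CPM in vehicle, 2.89 to 3.57 CPM with DMSO and 1.89 to 2.32 CPM with BI6727. Of 5 chondrocyte markers, Sox9 alone passed the filter, at 126 to 188 CPM. The part of these marker levels in the results was not tested. The replicates with DMSO stood further apart than the others: the SD of the log2 difference between replicates over genes was 0.377, against 0.163 in vehicle and 0.147 with BI6727. For the CCN genes, results that rest on 1 of these libraries are given with and without it. For the other genes named below this was not done.

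The first comparison asked what TGF-β1, given with DMSO, did to the CCN genes. Ccn2 rose 12.6-fold and Ccn4 rose 2.39-fold, while Ccn5 fell to a level 5.93-fold lower and Ccn3 to a level 3.27-fold lower than in vehicle. Ccn1 was 1.22-fold higher and was not called. Levels are normalized CPM, counts scaled to the TMM-adjusted total of the tested genes, and a gene was called at a two-sided Benjamini-Hochberg adjusted p-value below 0.01 in edgeR's quasi-likelihood test and a fold change above 2. Of the 9518 genes, 2.56% were called higher and 2.53% lower in this comparison. Beside these shares, 2 of the 4 members that passed the filter were called higher and 1 lower. In RNA from whole cultures, fewer cells that express a gene and less of its RNA per cell cannot be told apart.

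Ccn2 promotes adhesion and matrix production in fibroblasts. It measured 30.9 and 33.2 CPM in the vehicle libraries, 385 and 419 CPM with TGF-β1 and DMSO, and 255 and 239 CPM with TGF-β1 and BI6727. Every library with TGF-β1 lay far above both vehicle libraries, and the libraries with BI6727 lay between the other groups without overlap. The log2 fold change of TGF-β1 with DMSO over vehicle was 3.65 ± 0.11 (SE; n = 2 per group; adjusted p = 2.18e-05 in edgeR), the smallest p-value among the 9518 genes. The 95% interval of the fold was 10.5 to 15.0.

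Ccn4 supports the proliferation and survival of fibroblasts and osteoblast precursors. Its levels were 32.7 and 27.6 CPM in vehicle, 88.2 and 55.6 CPM with TGF-β1 and DMSO, and 45.0 and 46.6 CPM with BI6727 added. The groups did not overlap, but the replicates with DMSO differed 1.59-fold, against 1.07-fold to 1.31-fold for Ccn1, Ccn2, Ccn3 and Ccn5 in that group. The log2 fold change over vehicle was 1.26 ± 0.22 (SE; adjusted p = 0.00697 in edgeR). It was called only narrowly: without DMSO replicate 1 it was 0.88 and under the 2-fold limit (adjusted p = 3.2e-06 in edgeR), and the adjusted p passed 0.01 without vehicle replicate 1 (0.0675), vehicle replicate 2 (0.0892), BI6727 replicate 1 (0.0213) or BI6727 replicate 2 (0.0216), where the log2 fold change was 1.37, 1.14, 1.25 and 1.25. With the vehicle and DMSO libraries alone in the fit, the adjusted p was 0.0205.

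Ccn5 is a short family member known to restrain the growth and motility of smooth muscle cells. It measured 148 and 116 CPM in vehicle, 25.3 and 19.3 CPM with TGF-β1 and DMSO, and 14.1 and 11.1 CPM with TGF-β1 and BI6727. Both vehicle libraries stood above all 4 libraries with TGF-β1, and the libraries with BI6727 were the lowest. The log2 fold change of TGF-β1 with DMSO against vehicle was -2.57 ± 0.20 (SE; adjusted p = 0.00022 in edgeR), and it was called whichever library was left out, at -2.78 to -2.37.

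Ccn3, which is often expressed inversely to Ccn2 in mesenchymal cells, was the least abundant member and did not reach the filter of 10 CPM. The vehicle libraries held 116 and 113 counts of it (6.02 and 5.14 CPM), those with TGF-β1 and DMSO 31 and 39 counts (1.50 and 1.88 CPM), and those with TGF-β1 and BI6727 12 and 31 counts (0.668 and 1.28 CPM). The lowest count, 12, has an exact 95% Poisson interval of 6.2 to 21, which covers counting error only. Ccn3 was highest in vehicle, and no vehicle library overlapped the treated ones. It was tested in the fit of the 17936 genes with at least 10 counts in total, of which 2.72% were called lower, and its log2 fold change was -1.71 ± 0.33 (SE; adjusted p = 0.00643 in edgeR). This call was lost without vehicle replicate 1 (adjusted p = 0.0877), vehicle replicate 2 (0.0511), BI6727 replicate 1 (0.0142) or BI6727 replicate 2 (0.0137), at log2 fold changes of -1.61, -1.82, -1.71 and -1.72. With the vehicle and DMSO libraries alone in the fit, the adjusted p was 0.0114.

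Ccn1 promotes adhesion, migration and, at high levels, senescence of fibroblasts. It was abundant in every group, with 116 and 101 CPM in vehicle, 128 and 137 CPM with TGF-β1 and DMSO, and 105 and 101 CPM with TGF-β1 and BI6727. The libraries with DMSO were the highest, and those with BI6727 lay within the range of vehicle. The log2 fold change of TGF-β1 with DMSO over vehicle was 0.29 ± 0.10 (SE; 95% interval 0.046 to 0.53; adjusted p = 0.0846 in edgeR) and did not pass the test. In all 5 members the groups did not overlap in this comparison, as was so for 62.9% of the genes tested.

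**Figure D1:**
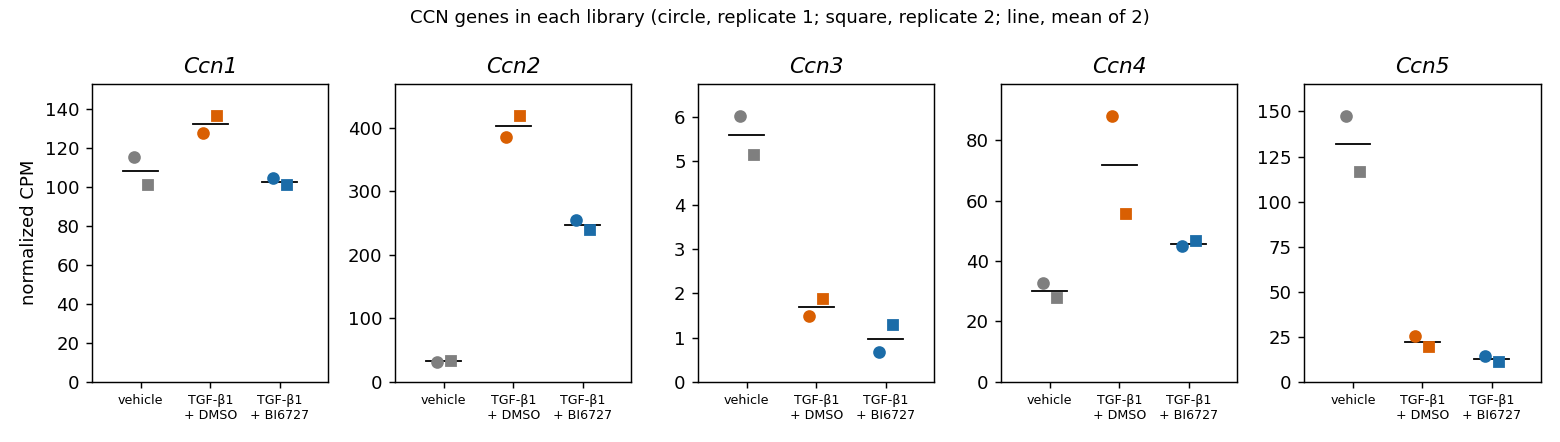
Normalized CPM (vertical axis, linear, from 0) of Ccn1 to Ccn5 in each of the 6 libraries, by group; circles are replicate 1, squares replicate 2 and the line the mean of 2. Ccn2 and Ccn4 are highest with TGF-β1 and DMSO (385 and 419 CPM; 88.2 and 55.6 CPM), Ccn3 and Ccn5 are highest in vehicle (6.02 and 5.14 CPM; 148 and 116 CPM), and every member is lower with BI6727 than with DMSO.

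The second comparison asked what BI6727 did to these genes when TGF-β1 was present. All 5 members were lower in both libraries with BI6727 than in both with DMSO, by 1.29-fold to 1.77-fold, and none was called. Of the 9518 genes, 17.1% were lower without overlap of the groups, and 0% were called higher and 0% lower by edgeR, with 206 genes higher and 430 lower at an unadjusted p below 0.05 and 11 called lower by DESeq2. The lowest adjusted p of any gene was 0.0565 in edgeR.

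The log2 fold change of Ccn2 against TGF-β1 with DMSO was -0.70 ± 0.10 (SE; 95% interval -0.93 to -0.47; adjusted p = 0.194 in edgeR), and Ccn2 stood at place 7 of the 9518 genes by its p-value. That of Ccn5 was -0.82 ± 0.20 (SE; 95% interval -1.29 to -0.35; adjusted p = 0.58 in edgeR), at place 66. Those of Ccn1 and Ccn4 were -0.36 ± 0.10 and -0.65 ± 0.21 (SE; adjusted p = 0.606 and 0.667 in edgeR). That of Ccn3 was -0.75 ± 0.37 (SE; adjusted p = 0.763 in edgeR), with a 95% interval of -1.58 to 0.091 that includes no change. Except for Ccn3, the intervals lay below 0, but these intervals are not adjusted for the number of genes. Changes above 2-fold lay outside the intervals of Ccn1 and Ccn2 and inside those of Ccn3, Ccn4 and Ccn5. Without DMSO replicate 2, Ccn5 was called lower, at -1.03 (adjusted p = 0.000412 in edgeR), and no other member was called with any library left out. Without DMSO replicate 1 the value of Ccn4 was -0.28, and without DMSO replicate 2 it was -0.96. In these fits Ccn2 was at -0.76 and -0.65 and Ccn1 at -0.41 and -0.33, all under the 2-fold limit. Ccn5 was at -0.62 without DMSO replicate 1, under that limit too. The value of Ccn3 was -0.39 without BI6727 replicate 1 and -1.32 without BI6727 replicate 2. The adjusted p-values of the main fit take their spread from all 6 libraries, including the DMSO replicates, which stood further apart. How the adjusted p depended on the settings is given below.

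The third comparison set TGF-β1 with BI6727 against vehicle. It shares the vehicle libraries with the first comparison and the BI6727 libraries with the second, so the values are set side by side and are not independent. Of the 9518 genes, 2.34% were called higher and 2.96% lower, and the groups did not overlap in 76.8%. Ccn2 rose 7.72-fold, with a log2 fold change of 2.95 ± 0.11 (SE; adjusted p = 2.15e-05 in edgeR), beside 12.6-fold with DMSO. Ccn5 fell to a level 10.5-fold lower, at -3.39 ± 0.21 (SE; adjusted p = 9.16e-05 in edgeR), beside 5.93-fold with DMSO. Ccn2, which had risen with TGF-β1, was thus nearer to vehicle with BI6727 than with DMSO, and Ccn5, which had fallen, was further from it.

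Ccn3 was at -2.46 ± 0.35 (SE; adjusted p = 0.00113 in edgeR), among 3.13% of the 17936 genes called lower. This call too was lost without vehicle replicate 1 or 2 (adjusted p = 0.0258 and 0.0161) or BI6727 replicate 1 or 2 (0.0261 and 0.0113), at log2 fold changes of -2.36, -2.57, -2.10 and -3.04. Ccn4 was 1.52-fold higher than vehicle, at 0.60 ± 0.22 (SE; adjusted p = 0.0821 in edgeR), and was not called. With the vehicle and BI6727 libraries alone in the fit, Ccn3 was at -2.45 (adjusted p = 3.32e-06 in edgeR). Ccn4 was at 0.61 there (adjusted p = 5.8e-05 in edgeR), still under the 2-fold limit. That fit takes its spread from those libraries alone, without the DMSO replicates that stood further apart. Ccn1 did not differ from vehicle beyond the spread of the libraries, at -0.08 ± 0.10 (SE; 95% interval -0.32 to 0.17; adjusted p = 0.63 in edgeR), and it was the member whose groups overlapped.

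**Figure D2:**
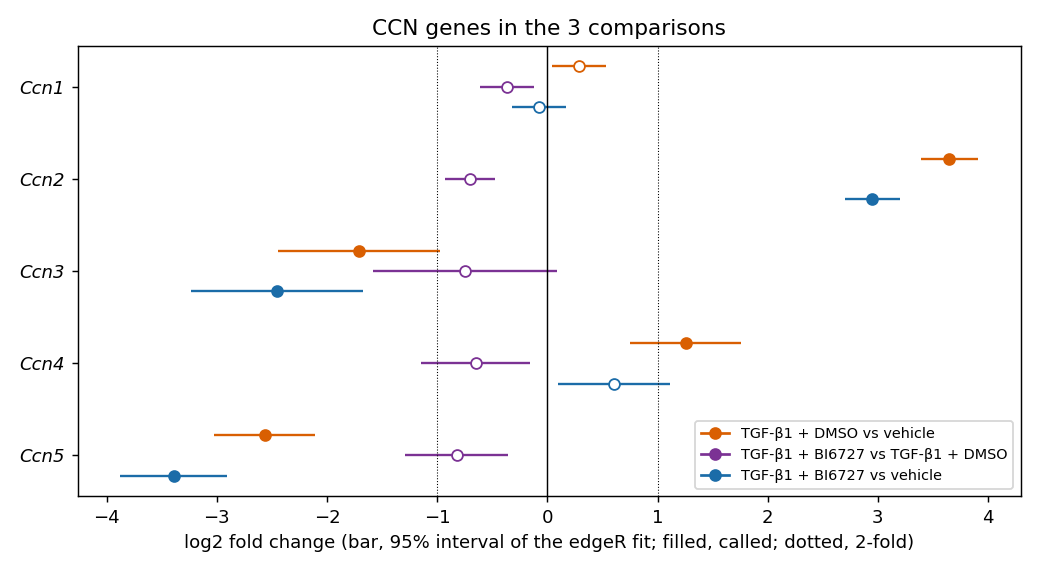
Log2 fold change (horizontal axis) of each CCN gene in the 3 comparisons, with the 95% interval of the edgeR fit as bars; filled points passed both limits of the call, open points did not, and dotted lines mark 2-fold. Ccn2 lies at 3.65 and 2.95 and Ccn5 at -2.57 and -3.39 against vehicle, and all 5 open points of BI6727 against DMSO lie between -0.82 and -0.36.

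Levels can be compared between the genes only per length, and for this the CPM were divided by the length of each gene in the count table (RPKM). In vehicle, Ccn5 was the highest at 68.6 ± 11.5 RPKM and Ccn1 followed at 53.7 ± 5.16 RPKM (SD, n = 2), then Ccn2 at 11.2 ± 0.563, Ccn4 at 5.42 ± 0.641 and Ccn3 at 1.95 ± 0.217 RPKM. With TGF-β1 and DMSO, Ccn2 was the highest at 141 ± 8.32 RPKM, followed by Ccn1 at 65.6 ± 3.11, Ccn4 at 12.9 ± 4.14, Ccn5 at 11.6 ± 2.22 and Ccn3 at 0.588 ± 0.0939 RPKM. The order with BI6727 was the same, at 86.5 ± 4.00, 50.9 ± 1.20, 8.23 ± 0.205, 6.57 ± 1.10 and 0.340 ± 0.152 RPKM. Ccn4 and Ccn5 overlapped with DMSO and could not be ordered there, while the other neighbours did not overlap. The length of Ccn4 in the table counts long untranslated parts, and per length of coding sequence Ccn4 overlapped Ccn2 in vehicle and exceeded Ccn5 without overlap in all 4 libraries with TGF-β1.

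The summed level of the 5 genes was 153 and 129 RPKM in vehicle, 228 and 235 RPKM with TGF-β1 and DMSO, and 157 and 148 RPKM with TGF-β1 and BI6727. In RPKM the sums with BI6727 thus lay beside those of vehicle, but their makeup did not. This depended on the division by length. Summed as CPM, the 5 genes gave 333 and 283 in vehicle, and 420 and 399 with BI6727, without overlap. In vehicle, Ccn5 made up 50.2% and 46.9% of the sum, Ccn1 37.5% and 38.8%, and Ccn2 7.06% and 9.00%. With TGF-β1 and DMSO, Ccn2 made up 59.2% and 62.4% and Ccn5 5.78% and 4.26%, and with BI6727 Ccn2 made up 57.0% and 56.4% and Ccn5 4.69% and 3.90%. The level of Ccn2 relative to Ccn5 was 0.141 and 0.192 in vehicle, 10.2 and 14.6 with DMSO, and 12.2 and 14.4 with BI6727, so that the groups with TGF-β1 overlapped in this ratio. Ccn1 held 27.8% and 28.9% with DMSO and 33.0% and 33.8% with BI6727. These shares are descriptions of the libraries with no test.

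**Figure D3:**
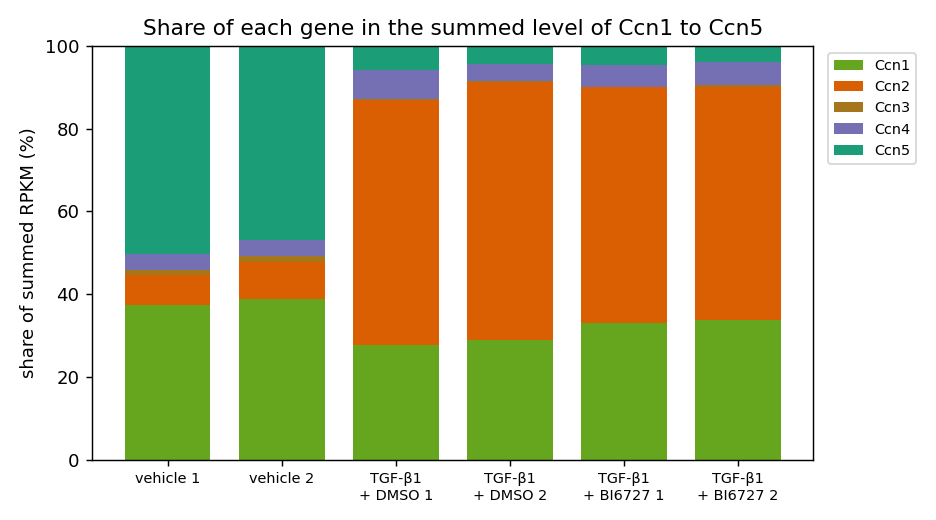
Share (vertical axis, %) of each CCN gene in the summed RPKM of Ccn1 to Ccn5, 1 bar per library. Ccn5 makes up 50.2% and 46.9% in vehicle, and Ccn2 makes up 56.4% to 62.4% in the 4 libraries with TGF-β1.

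Genes of the pathways around the CCN family were taken as lists written from general knowledge. In each list, counts of called genes stand beside 2.56% called higher and 2.53% called lower of all genes in the first comparison, where the median log2 fold change of all genes was -0.0045. No gene of any list was called between BI6727 and DMSO, as for all genes. The filter of 10 CPM in more than 3 samples could be passed through both groups with TGF-β1 alone, but not through vehicle alone. Itgb3, Nuak2, Egr2, Atf3 and Postn, named below, averaged 5.46, 5.06, 3.97, 4.65 and 7.48 CPM in vehicle. Fos, at 20.2 CPM in vehicle and 2.65 CPM with TGF-β1 and DMSO, was not tested. The filter thus favoured rises, and the list counts and medians are no result on direction.

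Of 22 genes for CCN receptors and binding partners, 15 were tested, 3 rose and 1 fell with TGF-β1 and DMSO, and the median log2 fold change was 0.43. Itgb3, the β3 integrin chain to which CCN proteins bind in pair with αv, rose from 5.46 ± 1.02 to 54.0 ± 15.1 CPM (SD, n = 2), a log2 fold change of 3.31 ± 0.24 (SE). Vegfa, a growth factor that Ccn2 binds, rose at 2.59 ± 0.10, and Itga5, the chain of the fibronectin receptor, at 1.56 ± 0.14. Dcn, which encodes decorin, a proteoglycan that binds Ccn2 and TGF-β, fell from 1112 ± 193 to 283 ± 45.9 CPM, at -1.97 ± 0.17. Fn1, fibronectin, the most abundant of the list, did not pass, with 1890 ± 1112 CPM with DMSO against 1382 ± 83.3 CPM in vehicle. The same 4 genes were called with TGF-β1 and BI6727 against vehicle, together with Sdc4, a heparan sulfate proteoglycan, at -1.08 ± 0.13. Between BI6727 and DMSO the median of this list was -0.024, while the median of the 4 tested CCN genes was -0.68 and that of all genes -0.0028. Most lists described below also had medians under 0 there. These were -0.31 for TGF-β matrix and feedback genes, -0.25 for insulin-like growth factor binding proteins and -0.19 for MRTF and SRF targets. Immediate early genes were at -0.18, YAP and TEAD targets at -0.011 and the 2 tested Wnt targets at 0.22.

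Among 21 YAP and TEAD target genes, with which Ccn1 and Ccn2 are usually grouped, 17 were tested and 3 rose with TGF-β1 and DMSO: the kinase gene Nuak2 at 2.60 ± 0.18, Gadd45b at 1.21 ± 0.17 and Ankrd1 at 1.07 ± 0.19 (SE). None of the tested genes was called lower, and the median was 0.15. Axl, a receptor kinase and the most abundant gene of this list, was at 0.21 ± 0.12. With BI6727 against vehicle the same 3 were called higher, and F3, the tissue factor gene, at -1.40 ± 0.17, and Ccdc80, at -1.64 ± 0.18, were called lower.

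Of 15 MRTF and SRF target genes, 12 were tested, and Acta2, the smooth muscle actin of myofibroblasts, rose at 2.30 ± 0.10 (SE), with a median over the list of 0.48. Actb, the most abundant, was at 0.50 ± 0.13 and was not called. Of 15 serum immediate early genes, 13 were tested and 3 transcription factor genes rose, Egr2 at 2.58 ± 0.21, Atf3 at 2.23 ± 0.28 and Maff at 1.65 ± 0.18, with a median of 0.44, while Junb, the most abundant, was at 0.44 ± 0.15. The genes called against vehicle with BI6727 in these lists were the same.

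Of 13 genes for matrix proteins and feedback regulators induced by TGF-β, 11 were tested and 6 rose with TGF-β1 and DMSO, with a median of 1.23. Among them, the matrix gene Postn was at 2.72 ± 0.46 (SE), the SMAD corepressor gene Skil at 2.35 ± 0.14 and Thbs1, thrombospondin 1, at 1.99 ± 0.24. Timp1 and the inhibitory Smad7 were at 1.36 ± 0.16 and 1.23 ± 0.12. Col1a2, the most abundant, was at -0.67 ± 0.22 and was not called. With BI6727 against vehicle, 5 of the 6 were called, Postn was not, and Sparc was called lower at -1.17 ± 0.14. Postn was at 12.6 ± 1.95 CPM with BI6727 and 49.2 ± 31.7 CPM with DMSO (SD, n = 2), and this difference was not called (-1.96 ± 0.44; SE; adjusted p = 0.569 in edgeR).

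Of 12 Wnt target genes, included because Ccn4 and Ccn5 were first described downstream of Wnt1, only 2 were tested and neither was called; the median was 0.41, and Ccnd1, cyclin D1, was at 0.57 ± 0.15 (SE). Of 5 insulin-like growth factor binding protein genes, whose products share a module with CCN proteins, 3 were tested. Igfbp7 rose at 1.10 ± 0.17 and Igfbp6 fell at -1.82 ± 0.13, with a median of 0.96. Igfbp6 was also called lower with BI6727 against vehicle, at -1.84 ± 0.13, and Igfbp7 was not called there.

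**Figure D4:**
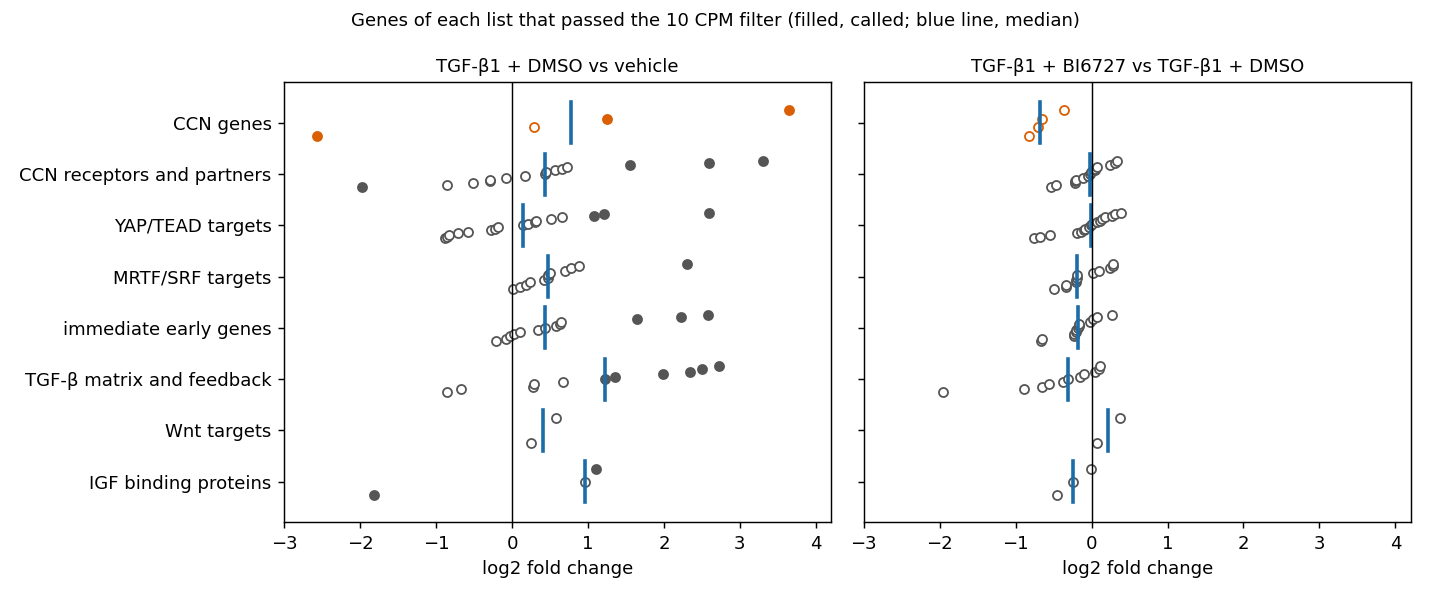
Log2 fold change (horizontal axis) of each tested gene of the CCN family and of the 7 lists around it, for TGF-β1 with DMSO against vehicle (left) and BI6727 against DMSO, both with TGF-β1 (right); filled points were called, open points were not, and the blue line is the median of a list. On the left the 4 tested CCN genes span -2.57 to 3.65, and on the right no point is filled and all 4 lie between -0.82 and -0.36.

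For each tested CCN gene, the 3 genes with the most similar course over the 6 libraries were found by the root mean square difference of their centred log2 CPM. All 6 libraries entered the choice. A likeness in group order, replicate gap or fold change therefore comes from the choice and is no separate result. For Ccn1, these were Tgfb1i1, which encodes a focal adhesion protein (difference 0.038), Coq10a (0.049) and Pdia5 (0.053). Tgfb1i1 measured 42.6 and 40.0 CPM in vehicle, 46.9 and 50.1 CPM with TGF-β1 and DMSO, and 38.9 and 38.0 CPM with BI6727.

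For Ccn2, the most similar were Tcim (0.25), the integrin gene Itgb3 (0.30) and the receptor gene Notch4 (0.30), which differ from it by more because Ccn2 moved further. Itgb3 measured 6.18 and 4.73 CPM in vehicle, 64.7 and 43.3 CPM with TGF-β1 and DMSO, and 35.5 and 39.2 CPM with BI6727. Itgb3 was thus highest with DMSO and lowest in vehicle, in the order of Ccn2, the gene it was chosen to match.

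For Ccn4, they were Edil3, a matrix gene whose product binds integrins (0.089), the cadherin gene Cdh11 (0.16) and Foxp1 (0.16). Edil3 measured 27.6 and 27.8 CPM in vehicle, 79.0 and 53.6 CPM with TGF-β1 and DMSO, and 42.2 and 46.4 CPM with BI6727. The gap between the DMSO replicates seen in Ccn4 was present in Edil3 too, in the same direction. The log2 fold change of Edil3 over vehicle was 1.26 ± 0.19 (SE; adjusted p = 0.00374 in edgeR), beside 1.26 for Ccn4. The like gap and the like fold change both come from how Edil3 was chosen.

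For Ccn5, they were S1pr3, a sphingosine 1-phosphate receptor gene (0.24), Gm2115 (0.25) and Vcam1, an adhesion molecule gene (0.26). S1pr3 measured 87.3 and 77.6 CPM in vehicle, 23.8 and 16.3 CPM with TGF-β1 and DMSO, and 10.5 and 9.85 CPM with BI6727. It was lowest with BI6727, as was Ccn5, the gene it was chosen to match. With Pearson's correlation in place of the difference, Edil3 for Ccn4 was the only gene named by both measures.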

How the data were processed

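The data were RNA-seq read counts on genes in 6 libraries. The authors mapped single-end reads of 50 bases to mm10 with Subjunc (Subread 1.6.4), counted them with featureCounts on Gencode M20 genes, and deposited the counts without normalization; the strand setting is not given in the sources used here. Groups and replicate numbers were taken from the sample titles. Library totals were 18362378 to 24452153 counts, and intervals and floors (3 counts) cover counting error only.

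All 6 libraries entered 1 fit of edgeR 4.0.16 (R 4.3.3; TMM scaling, quasi-likelihood test, 3 residual degrees of freedom, no covariate) on the genes that reached 10 CPM in more than 3 samples, the filter of the paper's methods. Calls required a fold change above 2 and a Benjamini-Hochberg adjusted p below 0.01, adjusted over all genes tested. The paper's results describe a profile of more genes than passed this filter here, so the genes tested are not its set. Ccn3, under the filter, was tested in the fit of genes with at least 10 counts in total. The SE was derived as the absolute log2 fold change over the root of F. Exact permutation tests were not used, since 2 libraries against 2 allow no p under 0.333. The test was run on simulated counts that gave each gene the same spread in all groups. The wider spread of the DMSO replicates was therefore not covered by that check. Log2 CPM had a prior count of 1, and RPKM used the length in the count table. Gene models and 50-base windows came from Gencode M21, promoters from RefSeq.

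The CCN genes and all lists were chosen with earlier results of these data known. Named from each list were the genes called in a comparison, at most 4 per comparison with the largest change, and the most abundant gene where it was not called; list genes below that rank, which completed a count, and marker genes were named beyond this rule, after their values were seen. Some genes that this rule selects are left out of the text. For each tested CCN gene, the 3 most similar genes were named. Alternatives were DESeq2 1.42.0, its size factors, other filters, only the compared groups, a replicate block, length offsets (lowess, span 0.3), another threshold and each library left out. A crossed replicate block and coding lengths of Gencode M21 were added after the data were seen. The paper's other experiments are not analysed here.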

Additional observations from a re-analysis of the deposited data

How the results depend on the processing

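With 2 libraries in each group, the number of calls depended on the settings, while the directions of the CCN genes were the same in all alternatives but one. Against vehicle, TGF-β1 with DMSO gave 485 called genes (244 higher, 241 lower) of 9518 tested. It gave 874 of 14604 genes with edgeR's filterByExpr and 901 of 17936 with at least 10 counts in total. With no filter beyond 1 count it gave 1231 of 24904. These wider filters thus tested more genes as well as calling more. At an adjusted p below 0.05 with no fold minimum, TGF-β1 with DMSO gave 2186 of 9518. With each library left out in turn it gave 127 to 792. TGF-β1 with BI6727 gave 505, and 908, 929, 1276 and 2333 under the same 4 settings, and 163 to 537 with a library left out. Between BI6727 and DMSO the count was 0 in edgeR, 6 with length offsets, 11 in DESeq2, 2 when genes needed 10 counts in total, 47 with no filter beyond 1 count and 0 to 61 with a library left out. The number of CCN genes called was 4 for DMSO against vehicle, 2 with only the 2 groups compared and 2 to 4 with a library left out (2 without either vehicle or either BI6727 library); 0 for BI6727 against DMSO and 0 to 1 with a library left out; and 3 for BI6727 against vehicle and 2 to 3. A fit without 1 library of a group assumes that the lone sample varies like the other groups. Ccn1 with BI6727 against vehicle, not called, changed sign to 0.021 without vehicle replicate 1, in a range of -0.17 to 0.021 over the libraries left out.

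The labels do not say whether the replicate numbers pair the samples. Same-numbered libraries deviated with correlations of -0.11 (vehicle and DMSO), 0.047 (vehicle and BI6727) and -0.26 (DMSO and BI6727). With 2 libraries per group, crossing the numbers of 1 group only flips the sign, so these values cannot decide on a pairing. With the replicate block, 453, 0 and 478 genes were called in the 3 comparisons and 4, 0 and 3 CCN genes. With the numbers of the DMSO group crossed, a pairing added after the data were seen, 491, 0 and 523 genes were called. For BI6727 against DMSO, the adjusted p in DESeq2 was 1.52e-05 for Ccn2, 0.0286 for Ccn5 and 0.236 for Ccn4, and in edgeR with no filter beyond 1 count it was 5.52e-05, 0.000301 and 0.00884. In edgeR with length offsets it was 0.00874 for Ccn2, 0.225 for Ccn5 and 0.198 for Ccn4. The change was under 2-fold in each. With only the 2 groups compared, the adjusted p was 0.981 for all of these genes. The shares of the summed level moved with CPM in place of RPKM, for Ccn2 from 60.8% to 63.8% with DMSO and for Ccn5 from 48.6% to 42.7% in vehicle. Lengths of RefSeq proteins were not run as an alternative. Ccn3 had the fewest counts, 12 to 116 in a library.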
